A study of Mus musculus with 15 samples.

Results

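SRF and YAP are nuclear regulators that couple the state of the actin cytoskeleton, and signals reaching it, to transcription. Their target genes were followed here in mouse kidney through 10 genes of the deposited table of 23284 genes, picked by symbol for their known roles, with earlier results of these data known. They were the TEAD targets Cyr61, Ctgf and Ankrd1, the SRF gene itself, the non-muscle actins Actb and Actg1, the adhesion gene Vcl, and the contractile genes Tagln, Myl9 and Acta2. Cyr61 and Ctgf are older symbols of Ccn1 and Ccn2. Messenger RNA was sequenced from kidneys of WT mice that had received D-ala, L-ala or Vehicle, the mirror-image forms of the amino acid alanine and their control, with 5 libraries in each group. All 15 libraries share the kidney as tissue, the WT genotype and a time of 2 h. The labels give no dose, route or make-up of the vehicle, and no strain, age or sex of the mice. Nothing in the labels says that libraries of a group came from different mice, so p-values measure the spread between these libraries, which may be technical. The series asks what D-ala does, and the L-ala group allows each response to be set beside that to the other isomer. Both isomers were compared with the same Vehicle libraries.

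SRF binds a DNA element called the CArG box and works with alternative partners. The MRTFs (genes Mkl1 and Mkl2) are held back by monomeric actin and drive cytoskeletal and contractile genes, whereas the ternary complex factors (TCFs, such as ELK1) respond to MAP kinase signals and drive immediate early genes. YAP and TAZ (genes Yap1 and Wwtr1) bind DNA through TEAD factors, and the kinases of the Hippo pathway keep them out of the nucleus. Cyr61, Ctgf and Ankrd1 are widely used readouts of YAP, and Cyr61 and Ctgf also respond to SRF. In the kidney, Acta2, Tagln and Myl9 are typical of vascular smooth muscle and of activated fibroblasts.

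The promoters are shown first because SRF and TEAD factors act through short DNA elements, many of which lie in promoters. RefSeq promoter sequences on GRCm38.p6, from 250 bases before to 50 bases after the start of the gene, were held for 7 of the 10 genes, which leaves out Actb, Tagln and Ctgf. Both strands were searched for the CArG box as CCWWWWWWGG, with W for A or T, and for the hexamer GGAATG. The hexamer is the core of the TEAD element and reads CATTCC on the other strand. No matches of one motif overlapped those of the other. The 250 bases before the start are given for Cyr61 (chr3:145649986-145650235, minus strand), for Srf (chr17:46556163-46556412, minus strand) and for Actg1 (chr11:120348496-120348745, minus strand), 5′ to 3′, with motif matches in capitals.
Cyr61: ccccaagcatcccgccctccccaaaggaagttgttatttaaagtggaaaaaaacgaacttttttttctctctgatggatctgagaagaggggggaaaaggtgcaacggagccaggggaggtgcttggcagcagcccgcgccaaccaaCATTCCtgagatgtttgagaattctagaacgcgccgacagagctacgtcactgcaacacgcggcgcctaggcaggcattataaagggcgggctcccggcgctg
Srf: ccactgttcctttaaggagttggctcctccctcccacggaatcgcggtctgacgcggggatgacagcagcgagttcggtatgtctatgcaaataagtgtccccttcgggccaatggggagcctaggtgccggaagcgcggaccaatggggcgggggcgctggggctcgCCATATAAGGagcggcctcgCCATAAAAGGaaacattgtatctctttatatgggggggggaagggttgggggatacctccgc
Actg1: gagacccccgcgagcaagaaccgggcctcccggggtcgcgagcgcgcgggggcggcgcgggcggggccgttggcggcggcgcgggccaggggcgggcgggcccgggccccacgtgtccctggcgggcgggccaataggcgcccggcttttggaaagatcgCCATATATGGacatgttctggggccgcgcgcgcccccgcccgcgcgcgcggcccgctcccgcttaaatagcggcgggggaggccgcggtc
The CArG box was found in 4 of the 7 promoters, against 1.63% of 32851 promoters of this length. Srf had CCATATAAGG at bases -82 to -73 from the start and CCATAAAAGG at -62 to -53. Actg1 had CCATATATGG at -90 to -81, Vcl had CCTTATAAGG at -227 to -218 and Myl9 had CCTAATAAGG at -161 to -152. The TEAD hexamer was also found in 4 of the 7, against 14.7% of all promoters. It lay at -103 to -98 in Cyr61, at -143 to -138 in Vcl, at -146 to -141 in Acta2, and at -210 to -205 and -123 to -118 in Ankrd1. These matches describe the letters in this window only. Near matches with a G or C between CC and GG were not counted, such as ccctatatgg and ccttgtttgg in Acta2 and ccttgtaagg in Myl9. A promoter without a CArG match here may thus still hold a looser form of the box.

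Cyr61 was raised by both isomers, and no other of the 10 genes had libraries that did not overlap those of Vehicle. Among all tested genes, groups did not overlap in 10.9% with D-ala and in 7.24% with L-ala, and between D-ala and L-ala in 9.11%. The other changes that passed the test were small rises of Actg1 with D-ala and of Actb with L-ala. Ctgf, Srf, Vcl and the 3 contractile genes did not pass it in any comparison. Levels are FPKM, fragments scaled to transcript length and library size, averaged over 5 libraries per group and shown with the SD. Fold changes are differences of log2(FPKM + 1) from a limma fit over all 15 libraries, which understates the change of low genes, and calls were made where the p adjusted by Benjamini and Hochberg over the 11781 genes tested was under 0.05. Of the 10 genes 9 were tested, and Ankrd1, under 1 FPKM in every library, was not. With D-ala 2 of the 9 rose and 0 fell, where 6.53% of all tested genes rose and 4.92% fell. With L-ala again 2 of the 9 rose and 0 fell, where 6.48% of all tested genes rose and 4.53% fell. At an unadjusted p under 0.05, limma gave 2 higher and 0 lower with D-ala, and 2 higher and 1 lower with L-ala, where 26.5% and 30.5% of all tested genes lay under that p. The median change of the 9 genes was 0.01 on the log2 scale with D-ala and 0.02 with L-ala. Over all tested genes the medians were 0.0011 and 0.0070. Between D-ala and L-ala limma called 0 of the 9 genes, where 13.7% of all tested genes were called, and at an unadjusted p under 0.05 it gave 1 higher and 1 lower, where 30.8% of all tested genes lay under that p. In bulk tissue, fewer cells of a type and less RNA per cell cannot be told apart.

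Before the values of single genes, some features of the libraries bear on them. The depth recovered from the table was 7.57 to 10.9 M reads per library, and no pair of libraries in a group was alike within counting noise. L-ala replicate 5 differed most from its fellows: the mean correlation of its deviations with the other L-ala libraries was -0.118, against 0.119 to 0.138 for the others. On the second principal component of all tested genes, with 15.9% of the variance, it lay at -10.4. The D-ala libraries lay there at -17.3 to -11.6, and the other L-ala libraries at 7.48 to 16.3. In that component the library labelled L-ala replicate 5 was thus nearer to the D-ala libraries than to its own group. Its label was kept as given, and whether the label is right cannot be told from these data. It was the lowest L-ala library in 7 of the 10 genes and the highest in 1, so values without it are given for the 9 tested genes. They are also given for some genes of the lists where a call changed, and the rest of the lists is given as counts. D-ala replicate 4 was the highest D-ala library in 7 of the 10. The kidney label was borne out by 6 tubule markers that summed to 3250 to 3993 FPKM with D-ala, 3344 to 3721 with L-ala and 3628 to 3841 with Vehicle. Of these 6, 2 rose and 1 fell with D-ala, and 1 rose and 1 fell with L-ala. Between the isomers 1 was called as higher and 1 as lower with D-ala. Of all tested genes 6.53% rose and 4.92% fell with D-ala, and 6.48% rose and 4.53% fell with L-ala. Blood and vessel markers varied as well. Summed over 7 endothelial markers, FPKM ran from 76.8 to 98.9 with D-ala, 62.0 to 124 with L-ala and 85.02 to 133 with Vehicle. Of these 7, 2 fell with D-ala (Pecam1 and Tek) and 5 fell with L-ala (Pecam1, Cdh5, Kdr, Tek and Flt1). At an unadjusted p under 0.05, limma gave 6 lower with D-ala and 5 lower with L-ala, and 0 higher with either. Of all tested genes, 12.60% were lower and 13.94% higher at that p with D-ala, and 13.45% lower and 17.02% higher with L-ala. The median log2 fold changes that follow are those of the 7 endothelial markers. Their median log2 fold changes were -0.44 and -0.61. Between the isomers 1 of the 7 was called, as higher with D-ala. Summed over 5 red blood cell markers, FPKM ran from 34.9 to 456 with D-ala, 262 to 744 with L-ala and 16.2 to 255 with Vehicle. Of the 4 of these that were tested, 0 were called with either isomer. Between the isomers 1 was called, as lower with D-ala. At an unadjusted p under 0.05, limma gave 0 higher with D-ala, 4 higher with L-ala, and 4 lower with D-ala than with L-ala. Summed over 6 neutrophil markers, it ran from 2.196 to 11.1 with D-ala, 12.9 to 34.7 with L-ala and 0.73 to 7.62 with Vehicle. Camp was at 0 in every library, and Ngp was at 0 throughout the D-ala and Vehicle groups. S100a8 and S100a9, both released by neutrophils, rose with L-ala. The part of these cells in the results that follow was not tested.

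**Figure D1:**
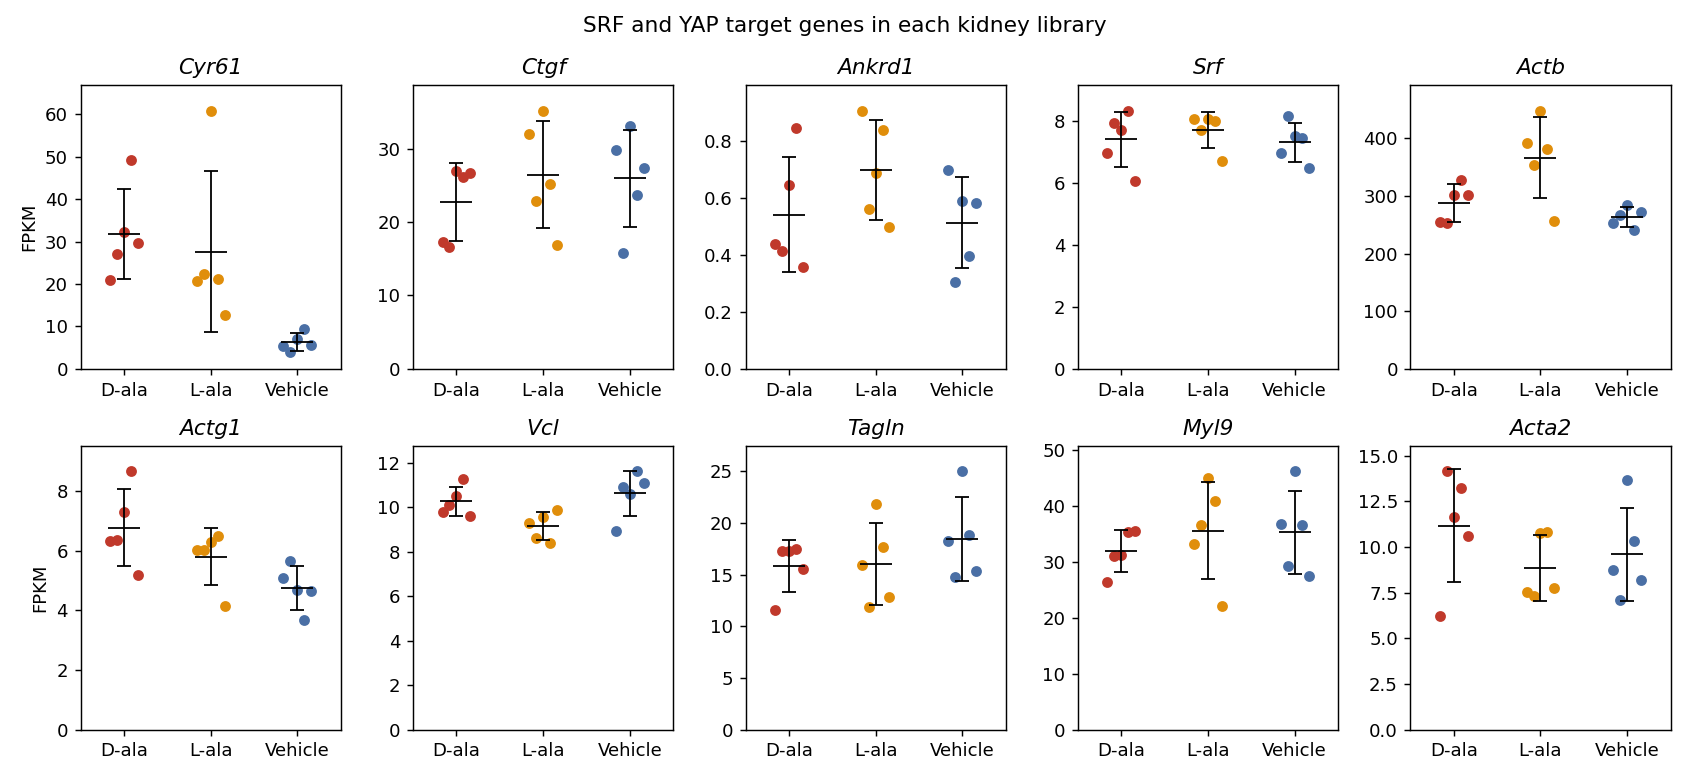
Level of each of the 10 genes in FPKM (vertical axes, each from 0) in each library of the D-ala, L-ala and Vehicle groups. Points are libraries, and bars show the mean and SD of 5 libraries. Only in Cyr61 do the points of D-ala (20.97 to 49.4 FPKM) and of L-ala (12.6 to 60.8 FPKM) all lie above those of Vehicle (4.09 to 9.49 FPKM).

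Cyr61 encodes a secreted matricellular protein of the CCN family that signals through integrins, and it lies on chromosome 3 (GRCm38, 145646976 to 145649981, minus strand). It measured 20.97, 26.995, 32.2, 49.4 and 29.6 FPKM in the D-ala libraries, 20.8, 22.5, 60.8, 21.2 and 12.6 FPKM in the L-ala libraries, and 5.30, 4.09, 7.16, 9.49 and 5.53 FPKM in the Vehicle libraries. Every D-ala and every L-ala library lay above the highest Vehicle library, and the D-ala and L-ala groups overlapped. Groups that do not overlap, with the isomer higher, were found for 6.12% of all tested genes with D-ala and for 4.01% with L-ala. The means were 31.8 ± 10.6 FPKM with D-ala, 27.6 ± 18.995 FPKM with L-ala and 6.31 ± 2.08 FPKM with Vehicle. D-ala raised it 5.04-fold by the means, a log2 fold change of 2.16 (SE 0.35, 95% interval 1.41 to 2.90, limma adjusted p = 0.00176). L-ala raised it 4.37-fold, a log2 fold change of 1.81 (SE 0.35, interval 1.07 to 2.56, limma adjusted p = 0.0103). Leaving out L-ala replicate 3, the highest library of all, gave 1.48 for L-ala (adjusted p = 0.00871), and leaving out L-ala replicate 5 gave 2.03 (adjusted p = 0.00309). The isomers differed by 0.34 on the log2 scale (interval -0.40 to 1.09, adjusted p = 0.532), an interval that spans differences in both directions. This difference was 0.13 (SE 0.34, adjusted p = 0.819) without L-ala replicate 5 and 0.67 (SE 0.25, adjusted p = 0.107) without L-ala replicate 3. It was called in neither fit, and its size and SE depended on single L-ala libraries. Endothelial cells express Cyr61, and their summed markers had medians of 92.3 FPKM with D-ala and 87.7 FPKM with L-ala, against 124 FPKM with Vehicle. The part of these or other cells in the Cyr61 result was not tested.

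Ctgf encodes the connective tissue growth factor, a close relative of Cyr61 that promotes matrix production, and it lies on chromosome 10 (24595442 to 24598683, plus strand). It measured 17.3, 16.6, 26.9, 26.2 and 26.7 FPKM with D-ala, 32.0, 22.8, 35.2, 25.2 and 16.9 FPKM with L-ala, and 29.8, 15.7, 33.02, 23.7 and 27.4 FPKM with Vehicle. The 3 groups overlapped over most of their range. The log2 fold change was -0.17 with D-ala (SE 0.22, interval -0.65 to 0.30, adjusted p = 0.676) and 0.02 with L-ala (interval -0.45 to 0.50, adjusted p = 0.956). Both intervals lie below that of Cyr61 in the same comparison. As a description, the ratio of Cyr61 to Ctgf FPKM had a median of 1.21 with D-ala (1.11 to 1.88), 0.841 with L-ala (0.649 to 1.73) and 0.217 with Vehicle (0.178 to 0.3998). All D-ala and L-ala libraries thus lay above all Vehicle libraries in this ratio. The 4 other CCN genes, Nov, Wisp1, Wisp2 and Wisp3, were too low to be tested, with group means of at most 0.294 FPKM.

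Ankrd1 encodes an ankyrin repeat protein best known from heart and muscle, and it lies on chromosome 19 (36111961 to 36120099, minus strand). It averaged 0.541 ± 0.202 FPKM with D-ala, 0.698 ± 0.175 FPKM with L-ala and 0.514 ± 0.159 FPKM with Vehicle. These levels rest on 5 to 14 rescaled counts per library, and the groups overlapped. In a fit without the filter on low values, over 18067 genes, its log2 fold change was 0.02 with D-ala (interval -0.19 to 0.24, adjusted p = 0.950) and 0.17 with L-ala (interval -0.047 to 0.38, adjusted p = 0.339). Of the 3 YAP readouts, Cyr61 alone was called with each isomer.

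Srf encodes the serum response factor and is itself a target of SRF, with a pair of CArG matches in the promoter shown above. It lies on chromosome 17 (46548329 to 46556175, minus strand). It measured 6.98, 7.95, 7.70, 8.33 and 6.07 FPKM with D-ala, 8.06, 7.70, 8.07, 7.98 and 6.71 FPKM with L-ala, and 6.95, 8.15, 7.53, 7.46 and 6.47 FPKM with Vehicle. The groups lay on top of each other. The log2 fold change was 0.01 with D-ala (SE 0.08, interval -0.16 to 0.18, adjusted p = 0.951) and 0.07 with L-ala (interval -0.10 to 0.24, adjusted p = 0.600). Between the isomers it was -0.06 (interval -0.23 to 0.12, adjusted p = 0.679).

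**Figure D2:**
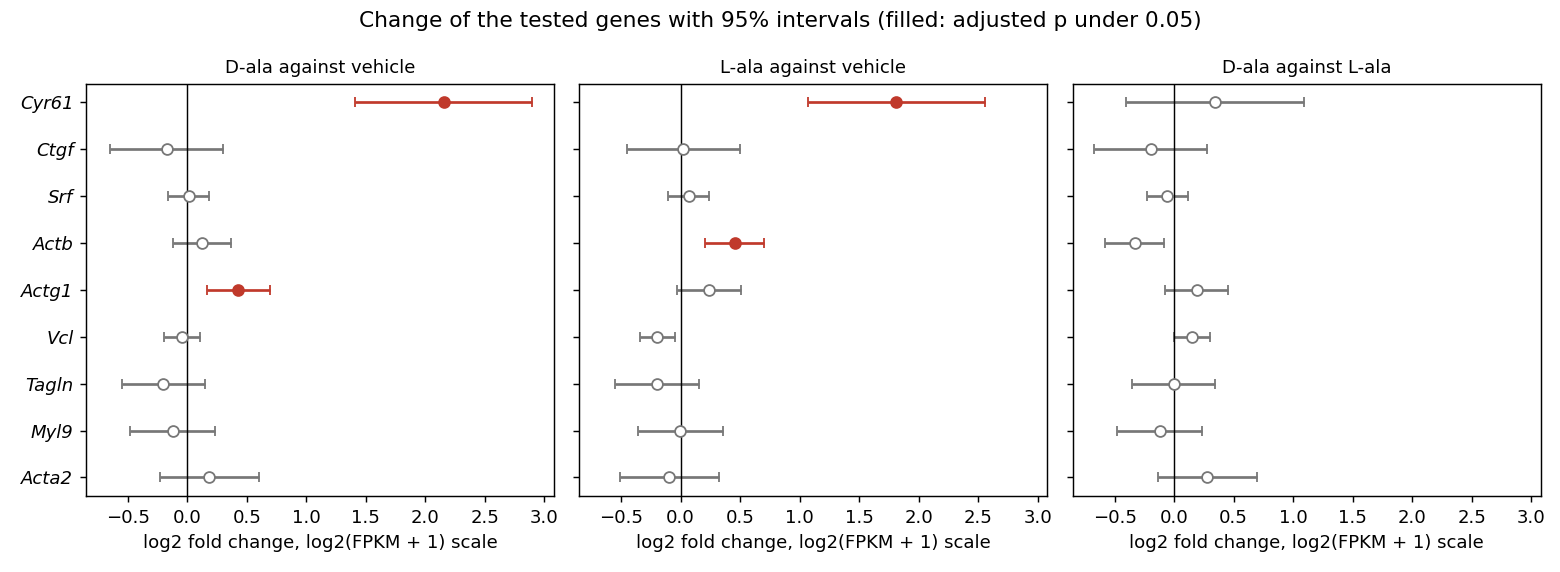
Log2 fold change with its 95% interval (horizontal axes, log2(FPKM + 1) scale) of the 9 tested genes for each isomer set against Vehicle and for the isomers set against each other. Filled red points passed an adjusted p of 0.05. Cyr61 stands at 2.16 and 1.81 in the first and second panels, and the other points lie between -0.33 and 0.46.

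The cytoskeletal actins moved little, and each isomer gave a call for a different one. Actb, the main non-muscle actin, lies on chromosome 5 (142903115 to 142906754, minus strand). It measured 254, 254, 302, 327 and 302 FPKM with D-ala, 392.02, 354, 447, 381 and 256 FPKM with L-ala, and 253, 266, 284, 240 and 272 FPKM with Vehicle. Of the L-ala libraries 4 lay above every Vehicle library, and L-ala replicate 5 lay within the Vehicle range. Actb rose with L-ala to 366 ± 70.1 FPKM, against 263 ± 16.9 FPKM with Vehicle, a 1.39-fold difference (log2 0.46, SE 0.12, interval 0.21 to 0.70, adjusted p = 0.0255). With D-ala it averaged 288 ± 32.5 FPKM, a log2 fold change of 0.12 (interval -0.12 to 0.37, adjusted p = 0.543). The difference between D-ala and L-ala was -0.33 (interval -0.58 to -0.08, adjusted p = 0.0689), and without L-ala replicate 5 it was -0.45 (adjusted p = 0.00217), which passed. The L-ala call was lost under quantile normalization (log2 0.26, adjusted p = 0.136) and on leaving out Vehicle replicate 4, L-ala replicate 1, 3 or 4 (adjusted p = 0.0747, 0.0600, 0.0567 and 0.0676). Actb is abundant in white blood cells, and the summed neutrophil markers had medians of 3.77 FPKM with D-ala, 16.4 with L-ala and 5.24 with Vehicle. Their part in the Actb result was not tested.

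Actg1, the other non-muscle actin, has a CArG match in the promoter shown above and lies on chromosome 11 (120345690 to 120348542, minus strand). It measured 6.33, 6.34, 7.30, 8.65 and 5.19 FPKM with D-ala, 6.02, 6.03, 6.30, 6.49 and 4.14 FPKM with L-ala, and 5.08, 5.66, 4.68, 3.66 and 4.65 FPKM with Vehicle. Of the D-ala libraries 4 lay above every Vehicle library, as did 4 of the L-ala libraries. Actg1 rose with D-ala to 6.76 ± 1.29 FPKM, against 4.75 ± 0.732 FPKM with Vehicle, a 1.43-fold difference (log2 0.43, SE 0.13, interval 0.16 to 0.69, adjusted p = 0.0373). With L-ala it averaged 5.79 ± 0.944 FPKM, a log2 fold change of 0.24 (interval -0.03 to 0.50, adjusted p = 0.206), and the isomers differed by 0.19 (interval -0.08 to 0.45, adjusted p = 0.320). The D-ala call was lost without a filter on low values (adjusted p = 0.0584) and on leaving out 1 library at a time from among Vehicle replicates 3 to 5 and D-ala replicates 1 to 4 (adjusted p between 0.0559 and 0.104). Without L-ala replicate 5 the L-ala change was called as well (log2 0.34, adjusted p = 0.0459). The level of Actg1 is uncertain. Of the 50-base windows of its longest coding transcript, 56.7% also occur in transcripts of 22 other genes, among them Gm12715, Gm8399 and Actg-ps1, against 14.2% for Actb and 0.35% for Acta2. Gapdh and Ppia, metabolic and protein-folding genes with many near-identical copies in the genome, were listed at very low levels in these kidneys. Gapdh averaged 0.202 ± 0.0792 FPKM with D-ala, 0.277 ± 0.128 FPKM with L-ala and 0.0602 ± 0.0560 FPKM with Vehicle. Ppia averaged 0.214 ± 0.152, 0.0784 ± 0.109 and 0.0694 ± 0.155 FPKM in the same groups. The part of copies in these levels was not tested. Reads shared with such copies could have been divided or dropped, and how they were treated is not stated in the labels. The coding sequences of Actg1 and Actb are 88.6% identical.

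Vcl encodes vinculin, which links integrin and cadherin adhesions to actin, and it lies on chromosome 14 (20929398 to 21033676, plus strand). It measured 9.79, 10.1, 10.5, 11.3 and 9.63 FPKM with D-ala, 9.29, 8.62, 9.56, 8.38 and 9.87 FPKM with L-ala, and 8.93, 10.9, 10.6, 11.6 and 11.1 FPKM with Vehicle. L-ala libraries tended to be the lowest, but Vehicle replicate 1 lay among them. The log2 fold change was -0.04 with D-ala (SE 0.07, interval -0.19 to 0.10, adjusted p = 0.740) and -0.19 with L-ala (interval -0.34 to -0.05, adjusted p = 0.0760). Neither passed. It was called lower with L-ala on leaving out Vehicle replicate 1 (log2 -0.25, adjusted p = 0.0318) or L-ala replicate 5 (log2 -0.22, adjusted p = 0.0410). Between the isomers the difference was 0.15 (interval 0.00 to 0.30, adjusted p = 0.151).

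The contractile genes varied more between libraries of a group than between groups. Tagln, which encodes the actin-bundling protein SM22-alpha of smooth muscle, lies on chromosome 9 (45929619 to 45936058, minus strand). It measured 11.5, 17.3, 17.3, 17.5 and 15.6 FPKM with D-ala, 15.98, 11.9, 21.8, 17.7 and 12.8 FPKM with L-ala, and 18.2, 14.8, 24.98, 18.9 and 15.4 FPKM with Vehicle. The groups overlapped. The log2 fold change was -0.20 with each isomer (SE 0.16 and interval -0.55 to 0.15 for both), with an adjusted p of 0.485 for D-ala and 0.433 for L-ala. Myl9, a regulatory light chain of smooth muscle and non-muscle myosin, lies on chromosome 2 (156775420 to 156781658, plus strand). It measured 26.4, 31.1, 31.3, 35.4 and 35.4 FPKM with D-ala, 33.2, 36.5, 44.97, 40.9 and 22.2 FPKM with L-ala, and 36.7, 29.2, 46.1, 36.6 and 27.5 FPKM with Vehicle. The groups again overlapped, at a log2 fold change of -0.12 with D-ala (SE 0.17, interval -0.48 to 0.23, adjusted p = 0.696) and -0.0013 with L-ala (interval -0.36 to 0.36, adjusted p = 0.996). Acta2, the actin of vascular smooth muscle, lies on chromosome 19 (34241090 to 34255590, minus strand). It measured 6.23, 14.1, 11.7, 13.2 and 10.6 FPKM with D-ala, 7.52, 7.33, 10.8, 10.8 and 7.76 FPKM with L-ala, and 8.74, 7.10, 13.7, 10.3 and 8.19 FPKM with Vehicle. D-ala replicate 1 was the lowest library of all, and the other D-ala libraries lay in the upper range. The log2 fold change was 0.19 with D-ala (SE 0.20, interval -0.23 to 0.60, adjusted p = 0.597) and -0.09 with L-ala (interval -0.51 to 0.32, adjusted p = 0.772). Between D-ala and L-ala the differences were 0.28 for Acta2 (interval -0.14 to 0.70), -0.12 for Myl9 (interval -0.48 to 0.24) and -0.0012 for Tagln (interval -0.35 to 0.35), with adjusted p of 0.347, 0.662 and 0.997.

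Leaving out L-ala replicate 5 changed no other call among the 9 tested genes in the comparisons that involve L-ala. With L-ala, the log2 fold change was 0.17 for Ctgf, 0.11 for Srf, -0.13 for Tagln, 0.15 for Myl9 and -0.06 for Acta2, with adjusted p of 0.339 to 0.871. Actb stayed called with L-ala at 0.58 (adjusted p = 0.00156). Between D-ala and L-ala, the difference was -0.34 for Ctgf, -0.10 for Srf, 0.09 for Actg1, 0.18 for Vcl, -0.07 for Tagln, -0.28 for Myl9 and 0.24 for Acta2, none of them called (adjusted p from 0.0891 to 0.803).

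The same libraries tended to stand out in the contractile genes. Vehicle replicate 3 was the highest Vehicle library in Acta2, Tagln and Myl9, and also in Ctgf and Actb. L-ala replicate 3 was the highest L-ala library in Tagln, Myl9, Ctgf, Actb, Srf and Cyr61. D-ala replicate 1 was the lowest D-ala library in Acta2, Tagln, Myl9 and Cyr61. Summed over 8 smooth muscle markers, Myh11, Cnn1, Smtn and Lmod1 among them, FPKM ran from 30.03 to 37.2 with D-ala, 28.5 to 35.6 with L-ala and 28.1 to 32.8 with Vehicle, with no marker at 0 throughout a group. Of the 4 that were tested, Smtn rose with D-ala. Smtn alone averaged 15.7 FPKM with Vehicle, so it made up much of the sum. The sum was lowest among D-ala libraries in replicate 2 (30.03 FPKM) and highest among Vehicle libraries in replicate 1 (32.8 FPKM). In these groups the sum thus did not follow the contractile genes. Myh11 by itself did, lowest among D-ala libraries in replicate 1 (1.226 FPKM) and highest among Vehicle libraries in replicate 3 (1.756 FPKM). Cnn1 was also highest in Vehicle replicate 3 (0.876 FPKM), but lowest among D-ala libraries in replicate 5 (0.419 FPKM). Among L-ala libraries the sum was highest in replicate 3 (35.6 FPKM), as were Tagln and Myl9. Summed over 10 markers of fibroblasts and pericytes, FPKM ran from 25.3 to 34.6 with D-ala, 23.5 to 43.9 with L-ala and 30.5 to 49.7 with Vehicle. Of the 8 of these that were tested, Pdgfra and Dcn fell with D-ala and Rgs5 fell with L-ala, and 0 rose with either. Of all tested genes 4.92% fell with D-ala and 4.53% with L-ala. At an unadjusted p under 0.05, limma gave 1 higher and 3 lower with D-ala, and 0 higher and 3 lower with L-ala. Between the isomers 2 were called, both as higher with D-ala, where 7.01% of all tested genes were called as higher.

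**Figure D3:**
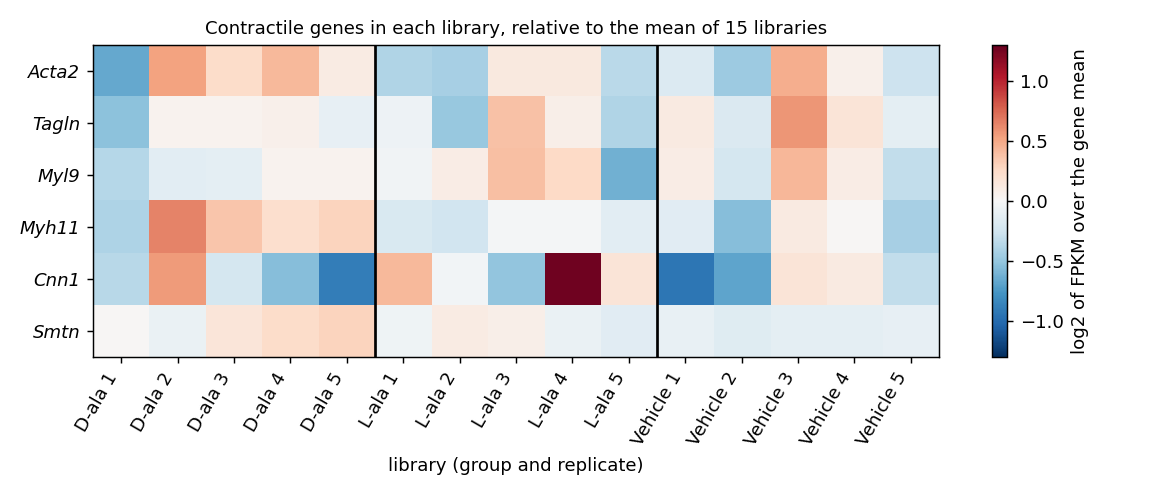
Log2 of the ratio of each FPKM to that gene's mean over 15 libraries (colour, red above and blue below the mean) for Acta2, Tagln and Myl9 and for the smooth muscle genes Myh11, Cnn1 and Smtn, with 1 column per library of D-ala, L-ala and Vehicle. D-ala replicate 1 is blue and Vehicle replicate 3 red in Acta2, Tagln, Myl9, Myh11 and Cnn1. In Smtn these libraries go the other way, at 101% and 91.8% of the mean.

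By level, Actb was first in every group and Ankrd1 last. In FPKM, which is scaled to length, the order by mean in D-ala was Actb, Myl9, Cyr61, Ctgf, Tagln, Acta2, Vcl, Srf, Actg1 and Ankrd1. In Vehicle it was Actb, Myl9, Ctgf, Tagln, Vcl, Acta2, Srf, Cyr61, Actg1 and Ankrd1. Cyr61 stood at place 3 in D-ala and in L-ala and at place 8 in Vehicle. Most neighbours in these orders overlapped in range. In D-ala the exceptions were Actb above Myl9, Vcl above Srf, and Actg1 above Ankrd1. In L-ala they were Actb above Myl9, Tagln above Vcl, Srf above Actg1, and Actg1 above Ankrd1. In Vehicle they were Actb above Myl9, Tagln above Vcl, and Actg1 above Ankrd1.

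**Figure D4:**
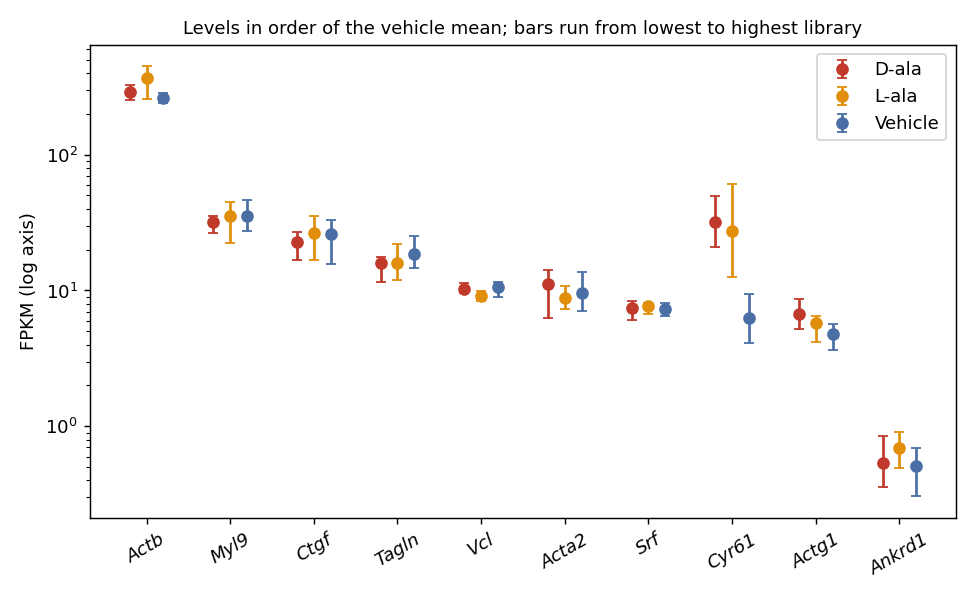
Level in FPKM (vertical log axis) of the 10 genes in order of their Vehicle mean, for D-ala, L-ala and Vehicle. Points are means of 5 libraries and bars run from the lowest to the highest library. Cyr61 lies at 31.8 FPKM with D-ala and 27.6 with L-ala, against 6.31 with Vehicle, and the bars of the other genes overlap between groups.

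Other genes of the same pathways were counted in lists. For comparison, 6.53% of all tested genes rose and 4.92% fell with D-ala, and 6.48% rose and 4.53% fell with L-ala. At an unadjusted p under 0.05, 13.94% were higher and 12.60% lower with D-ala, and 17.02% higher and 13.45% lower with L-ala. Between D-ala and L-ala these shares were 14.40% higher and 16.42% lower. Whether the lists differ from these shares was not tested. Of 10 early targets of SRF with its TCF partners 6 were tested, and 4 rose with D-ala, 5 with L-ala and 0 fell with either. At an unadjusted p under 0.05, limma gave 5 higher with D-ala, 6 higher with L-ala and 0 lower with either. Fosb, Egr2, Egr3 and Egr4 were too low to be tested. Egr3, for one, averaged 0.0302 FPKM with D-ala, 0.0490 with L-ala and 0.108 with Vehicle, and Egr4 was listed at 0 in all D-ala and Vehicle libraries and at most at 0.0590 FPKM with L-ala. The median log2 fold change of the 6 was 1.71 with D-ala and 2.35 with L-ala. This list, like the others, was chosen with earlier results of these data known. Whether SRF and its TCF partners drove these rises was not tested. Junb, a subunit of AP-1, rose to 86.4 ± 20.4 FPKM with D-ala and 105 ± 30.4 FPKM with L-ala, against 18.7 ± 6.01 FPKM with Vehicle (log2 2.17 and 2.44, adjusted p = 6.49e-05 and 1.81e-04). Ier2, an immediate early regulator, rose to 30.6 ± 4.62 FPKM with D-ala and 47.7 ± 17.2 FPKM with L-ala, against 11.3 ± 2.03 FPKM with Vehicle. Nr4a1, an orphan nuclear receptor, rose to 68.1 ± 13.3 FPKM with D-ala and 43.6 ± 7.03 FPKM with L-ala, against 11.6 ± 10.9 FPKM with Vehicle (log2 2.88 and 2.26). Fos, the partner of the Jun proteins in AP-1, rose by 1.91 with D-ala and 2.87 with L-ala on the log2 scale. All these calls held in 25 of 25 alternative fits for D-ala. Egr1, a zinc finger factor, rose with L-ala to 48.1 ± 14.1 FPKM, against 7.58 ± 5.64 FPKM with Vehicle (log2 2.78, adjusted p = 0.00757). It was at 19.9 ± 6.61 FPKM with D-ala (log2 1.51, adjusted p = 0.0587). The difference of Egr1 between D-ala and L-ala, -1.27, did not pass (adjusted p = 0.0933). The groups did not overlap, at 8.98 to 24.2 FPKM with D-ala and 37.4 to 69.8 FPKM with L-ala. Between these groups 9.11% of all tested genes did not overlap, and the other tested genes of this list overlapped. Between the isomers limma called 0 of the 6, with 0 higher and 2 lower at an unadjusted p under 0.05. Mcl1, a survival gene of the BCL2 family, was not called with either isomer. Without L-ala replicate 5, 4 rose with D-ala and 6 with L-ala, and between the isomers Ier2 was called as lower with D-ala (log2 -0.74, adjusted p = 0.00791).

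Of 27 targets of the MRTF branch 22 were tested. With D-ala 1 rose, 1 fell and 20 did not pass, at a median of -0.01, and at an unadjusted p under 0.05 limma gave 4 higher and 3 lower. Smtn, a smooth muscle actin-binding protein, was at 18.7 ± 2.00 FPKM with D-ala and 15.7 ± 0.241 FPKM with Vehicle (log2 0.23, adjusted p = 0.0387). Csrp1, a LIM protein of smooth muscle, was at 30.7 ± 3.79 FPKM with D-ala and 38.2 ± 4.46 FPKM with Vehicle (log2 -0.31, adjusted p = 0.0423). With L-ala 0 rose, 2 fell and 20 did not pass, at a median of -0.06, and at an unadjusted p under 0.05 limma gave 1 higher and 5 lower. The genes that fell were Filip1l (log2 -0.56, adjusted p = 0.0336) and Myh9, the heavy chain of non-muscle myosin (log2 -0.29, adjusted p = 0.0483). Between D-ala and L-ala, where 7.01% of all tested genes were higher and 6.66% lower with D-ala, 2 of the 22 were called. Tln1, which encodes the integrin activator talin, was higher with D-ala (22.2 ± 1.20 FPKM, against 17.4 ± 2.32 FPKM with L-ala, log2 0.34, adjusted p = 0.00711), as was Myh9 (log2 0.31, adjusted p = 0.0330). The Tln1 call held in 25 of 25 alternatives. The Myh9 call between the isomers held in 13 of 25 and was lost on leaving out any one of replicates 1 to 4 of D-ala or of L-ala. Without L-ala replicate 5, 0 rose and 3 fell with L-ala, and 2 were higher and 0 lower with D-ala than with L-ala. Tln1 was then called as lower with L-ala (log2 -0.23, adjusted p = 0.00809), which it was not with all libraries (log2 -0.16, adjusted p = 0.135). The calls of Smtn, Csrp1, Filip1l and, with L-ala, Myh9 held in 14 of 25, 15 of 25, 15 of 24 and 8 of 25. Leaving out single libraries of either group ended them.

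**Figure D5:**
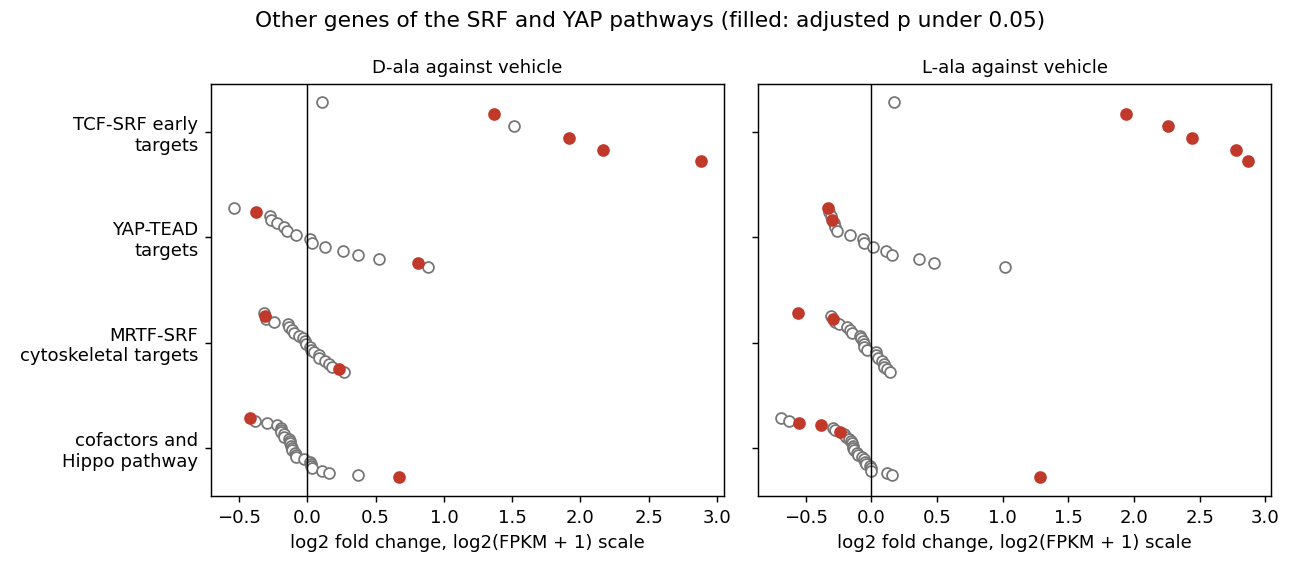
Log2 fold change (horizontal axes, log2(FPKM + 1) scale) of each tested gene in 4 pathway lists, for D-ala against Vehicle on the left and L-ala against Vehicle on the right. Filled red points passed an adjusted p of 0.05. In the list of early TCF-SRF targets 4 of 6 points with D-ala and 5 of 6 with L-ala are filled and lie right of 0, and in the other lists most points are open, on both sides of 0.

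Of 19 further YAP and TEAD targets 16 were tested. With D-ala 1 rose, 1 fell and 14 did not pass, at a median of -0.03, and at an unadjusted p under 0.05 limma gave 4 higher and 5 lower. Gadd45a, a growth arrest gene that p53 also drives, rose to 66.7 ± 24.6 FPKM with D-ala, against 36.5 ± 8.48 FPKM with Vehicle (log2 0.81, adjusted p = 0.0391), a call that held in 18 of 25 alternatives. It was lost on leaving out Vehicle replicate 1, 2 or 4, L-ala replicate 1, or D-ala replicate 3 or 4. Rbms3, an RNA-binding protein, fell by 0.38 on the log2 scale at a level of 0.937 ± 0.209 FPKM with D-ala and 1.51 ± 0.243 FPKM with Vehicle (adjusted p = 0.0387, 15 of 24 alternatives). With L-ala 0 rose, 2 fell and 14 did not pass, at a median of -0.11, and at an unadjusted p under 0.05 limma gave 1 higher and 6 lower. Crim1, a membrane protein that binds bone morphogenetic proteins, fell to 9.82 ± 0.828 FPKM with L-ala, against 12.6 ± 0.682 FPKM with Vehicle (log2 -0.33, adjusted p = 0.0112, 25 of 25 alternatives). Myof, the membrane repair protein myoferlin, fell by 0.30 (adjusted p = 0.0462, 9 of 24 alternatives). Between D-ala and L-ala, Asap1 and Myof were higher with D-ala (log2 0.39 and 0.33) and Fjx1 was lower (log2 -0.38), with adjusted p of 0.0184, 0.0263 and 0.0141. These calls held in 23 of 24, 16 of 24 and 24 of 24 alternatives. That of Myof was lost without L-ala replicate 2 or 4 or without D-ala replicate 2, 3 or 4, and that of Asap1 without L-ala replicate 4. Leaving out L-ala replicate 5 gave 0 that rose and 3 that fell with L-ala, and 4 higher and 1 lower with D-ala than with L-ala. Asap1 was then called as lower with L-ala (log2 -0.30, adjusted p = 0.0485). Crim1 was then called as higher with D-ala than with L-ala (log2 0.21, adjusted p = 0.0400). Some changes of the list that were not called were large. Chosen after its values were seen, Nuak2, a kinase of the AMPK family, averaged 18.9 ± 8.60 FPKM with D-ala, 19.1 ± 2.89 FPKM with L-ala and 9.63 ± 4.93 FPKM with Vehicle (log2 0.89 and 1.02, adjusted p = 0.116 and 0.0713). F3, the tissue factor of coagulation, also chosen after its values were seen, had log2 fold changes of 0.53 with D-ala and 0.47 with L-ala (adjusted p = 0.243 and 0.257).

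Among the regulators themselves, Rhob rose and Elk3 fell with both isomers, and Wwc1 and Sav1 fell with L-ala. Of 30 cofactors and Hippo pathway genes 27 were tested, and 1 rose and 1 fell with D-ala at a median of -0.12, with 3 higher and 7 lower at an unadjusted p under 0.05. With L-ala 1 rose and 3 fell at a median of -0.14, with 1 higher and 11 lower at an unadjusted p under 0.05. Without L-ala replicate 5, 1 rose and 6 fell with L-ala. Rhob, a small GTPase that is itself an immediate early gene and acts on actin, rose in both. It was at 38.2 ± 13.4 FPKM with D-ala and 57.1 ± 8.55 FPKM with L-ala, against 23.1 ± 5.36 FPKM with Vehicle. Its log2 fold change was 0.67 with D-ala (adjusted p = 0.0404) and 1.28 with L-ala (adjusted p = 0.00325). The L-ala call held in 25 of 25 alternatives, whereas the D-ala call held in 12 of 25 and was lost on leaving out most single libraries. The difference between the isomers was -0.61 (adjusted p = 0.0518). Elk3, a ternary complex factor that mostly represses, fell with both (log2 -0.42 with D-ala and -0.39 with L-ala, adjusted p = 0.0280 and 0.0444, 19 of 24 and 10 of 24 alternatives). Without L-ala replicate 5 its L-ala call was lost (log2 -0.35, adjusted p = 0.0548). Wwc1, the upstream Hippo protein KIBRA, fell with L-ala to 34.98 ± 7.93 FPKM, against 50.9 ± 5.91 FPKM with Vehicle (log2 -0.55, adjusted p = 0.0159), and it was higher with D-ala than with L-ala (log2 0.42, adjusted p = 0.0351). The L-ala call of Wwc1 held in 25 of 25 alternatives. Its call between the isomers held in 17 of 25, and was lost without L-ala replicate 3 or 4 or without D-ala replicate 1, 3, 4 or 5. Sav1, the scaffold of the Hippo kinases, fell by 0.23 with L-ala (adjusted p = 0.0461, 12 of 25 alternatives). Rhoa, the GTPase upstream of MRTF, was at 82.6 ± 4.21 FPKM with D-ala and 98.7 ± 6.45 FPKM with L-ala (log2 -0.25, adjusted p = 0.0147, 25 of 25 alternatives).

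Yap1, Wwtr1, Tead1, Mkl1 and Mkl2 were not called with either isomer. Yap1 averaged 18.97 ± 1.01 FPKM with D-ala, 19.97 ± 1.06 FPKM with L-ala and 21.5 ± 1.13 FPKM with Vehicle, a log2 fold change of -0.17 with D-ala (adjusted p = 0.0522) and -0.10 with L-ala (adjusted p = 0.222). With D-ala it passed as lower in 7 of 25 alternatives. Wwtr1 averaged 18.7 ± 1.05 FPKM with D-ala, 18.6 ± 0.742 FPKM with L-ala and 20.5 ± 1.04 FPKM with Vehicle, with adjusted p of 0.133 and 0.0990. Tead1 had log2 fold changes of -0.02 and -0.14 with D-ala and L-ala (adjusted p = 0.900 and 0.235). Mkl1 had -0.12 and -0.14 (adjusted p = 0.497 and 0.339), and Mkl2 had 0.10 and -0.11 (adjusted p = 0.442 and 0.364). Without L-ala replicate 5, Mkl2 was called as higher with D-ala than with L-ala (log2 0.25, adjusted p = 0.0344). Of 8 genes often used as housekeeping references 6 were tested, and limma called 0 of them with D-ala (2 higher and 2 lower at an unadjusted p under 0.05) and 3 with L-ala, where Ywhaz and Hprt rose and Eef2 fell. These calls held in 18 of 25, 16 of 25 and 8 of 25 alternatives, and each was lost without Vehicle replicate 2 or 4 or without L-ala replicate 1, 3 or 4. Between the isomers B2m and Hprt were lower with D-ala, in 13 of 25 and 20 of 25 alternatives.

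Likeness of pattern was measured as the root mean square difference, over 15 libraries, of log2(FPKM + 1) after each gene's mean was taken off. Nearest to Cyr61 were Ier2 (0.573), Gdf15 (0.577) and Junb (0.596), where Cyr61 itself varied by 1.08 around its mean. Gdf15, a stress-responsive cytokine, averaged 50.5 FPKM with D-ala, 44.8 with L-ala and 7.32 with Vehicle. Nearest to Srf were 1110012J17Rik (0.0790), Rwdd4a (0.0822) and 2410002O22Rik (0.0843), where Srf varied by only 0.116. Nearest to Tagln were Mndal (0.155), Sepn1 (0.164) and Itga9 (0.166), where Tagln varied by 0.275. Chosen after their values were seen, the nearest to Ctgf were Gimap4 (0.183), Esam (0.192), an adhesion molecule of endothelial junctions, and Cnn2 (0.199), a calponin. Cnn2, which is on the list of MRTF targets, was also the nearest to Myl9 (0.119), and the nearest to Acta2 was Myh11 (0.188), the heavy chain of smooth muscle myosin. Cyr61 and Ctgf had no neighbour in common among their nearest 3. The measure keeps the size of each gene's variation, which was 1.08 for Cyr61 and 0.352 for Ctgf. A gene near to one could thus hardly be near to the other, and no conclusion is drawn from this. Libraries of a group share their treatment, so a gene that differs between groups is drawn towards others that do.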

How the data were processed

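Kidney RNA was measured in 15 libraries, made from TRIzol extracts with a TruSeq kit for stranded mRNA, per the labels' protocols. Bowtie2 2.2.3, TopHat2 2.0.13 and SAMtools 0.1.19 are the tools, and mm10 the build, per the submitters' processing notes. What quantified the reads, with which annotation and strand setting, is not given in the sources used here. The tests used the deposited FPKM, a unit the columns bear per the file headers. The deposited log2 columns, headed processed signal per the file headers, equalled mean-centred log2 FPKM to within 0.0012 (over 10664 genes with at least 1 FPKM throughout) and were used no further. The deposited column headed count holds whole numbers rescaled per library, so it was treated as a score and used only for depth (7.57 to 10.9 M reads), for gene length and to look for duplicate libraries. FPKM carry no counting interval.

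Genes at 1 FPKM or more in at least 5 libraries (11781) were fitted as log2(FPKM + 1) with limma 3.58.1 in R 4.3.3, with 1 mean per group, moderation with a mean-variance trend robust to outlying variances, and Benjamini-Hochberg adjustment. Every adjusted p is from limma, and intervals are at 95%. The fit was tested on simulated data. Replicates were numbered in order within a group. Coordinates are GENCODE M21 on GRCm38, the assembly of mm10. Named were the 10 genes, up to 4 called genes of each list per comparison by smallest adjusted p, Mkl1, Mkl2, Yap1, Wwtr1 and Tead1, and the 3 nearest in pattern to Cyr61, Srf and Tagln. The members and lists were chosen with earlier results of these data known. Alternatives were other pseudocounts (0.1 and 0.5), no filter or one at 5 FPKM, median-of-ratios and quantile scaling, removal of length or GC trends, plain moderation, fits of only the 2 groups compared, and leaving out each library.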

Additional observations from a re-analysis of the deposited data

Results flagged for a closer look

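In 3 of the 30 sets of 5 libraries that were checked, 10 genes in 3 groups, 1 library lay far from the rest of its group by Dixon's criterion (a gap above 0.71 of the range), which chance alone does in about 1 of 20 sets. All 3 were L-ala libraries, and those of Srf and Actg1 were the same one, so they are not separate events to set against that rate. The rate is for normally distributed values, and the gaps were taken in FPKM, not on the log2 scale of the tests. Cyr61 was at 60.8 FPKM in L-ala replicate 3, where the next L-ala library was at 22.5 FPKM, a gap of 0.796 of the range. Srf was at 6.71 FPKM in L-ala replicate 5, where the next was at 7.70 FPKM, a gap of 0.731 of the range. Actg1 was at 4.14 FPKM in L-ala replicate 5, where the next was at 6.02 FPKM, a gap of 0.800 of the range.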

How the results depend on the processing

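Cyr61 was called as higher in 25 of 25 alternatives with D-ala (log2 fold change 1.99 to 2.32) and in 25 of 25 with L-ala (1.48 to 2.03). Actg1 with D-ala was called in 17 of 25 and Actb with L-ala in 20 of 25. The number of the 10 genes called with D-ala was 1 with no filter, and 1 to 2 when single libraries were left out. With L-ala it was 1 under quantile normalization and 1 to 4 on leaving out libraries, and between the isomers it was 0 to 1. Over all genes, leaving out libraries gave 814 to 1591 calls for D-ala against 1349 with all libraries, 321 to 2577 for L-ala against 1297, and 770 to 2763 between the isomers against 1611. The highest counts for L-ala and between the isomers came without L-ala replicate 5, and the lowest for D-ala and for L-ala without Vehicle replicate 4. The L-ala count was 575 under quantile normalization (234 higher and 341 lower, against 763 and 534), 748 with the length trend removed and 635 in a fit of only the 2 groups, which gave 985 between the isomers. With the 5 FPKM filter, L-ala gave 825 higher and 321 lower, and D-ala against L-ala gave 579 higher and 765 lower, against 826 and 785. With D-ala, quantile normalization gave 740 higher and 836 lower, against 769 and 580. The causes were not tested. Directions that turned were those of uncalled changes near 0. Under quantile normalization Ctgf with L-ala was at -0.046 and Tagln between the isomers at 0.00976. With the length trend removed, Tagln and Myl9 between the isomers were at 0.066 and 0.011, and Mkl2 with L-ala at 0.011. With the GC trend removed, on 11324 genes, Srf between the isomers was at 0.00434. Leaving out libraries turned Srf with D-ala (-0.027 to 0.073), Ctgf with L-ala (-0.14 to 0.17), Myl9 with L-ala (-0.093 to 0.15), Tead1 with D-ala (-0.062 to 0.019), Acta2 with L-ala (-0.18 to 0.030), and, between the isomers, Tagln (-0.094 to 0.11) and Srf (-0.098 to 0.0058). No paired analysis was possible because the labels give the groups no shared replicate numbers. Depth limits Ankrd1, at 5 to 14 rescaled counts per library.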
